A study of Mus musculus with 6 samples.

Results

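The classical protein tyrosine phosphatases were examined in HEI-OC1, an immortalised cell line from the mouse organ of Corti that is used to study hair cell toxicity. Members were the genes of the count table whose symbol is Ptpn followed by a digit (non-receptor types) or Ptpr followed by 1 letter with or without a digit (receptor types). This rule took 38 of 30438 gene symbols, 21 receptor and 17 non-receptor types. It left out Ptprcap, which encodes a protein associated with CD45 and no phosphatase. Poly(A)-selected RNA had been sequenced from 3 libraries of wild-type HEI-OC1, the control, and from 3 whose label is Nrf2 KO, a knockout of the antioxidant transcription factor encoded by Nfe2l2; these are called the KO-labelled libraries. Both groups were grown at 33 °C under 10% CO2 in DMEM with 10% serum and penicillin-streptomycin, and no drug is recorded. The sources used here do not say whether the knockout is 1 clone or where the edit lies.

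Classical protein tyrosine phosphatases remove phosphate from tyrosine through a cysteine in the catalytic pocket, and they oppose the tyrosine kinases. Oxidation of that cysteine switches the enzymes off reversibly, which ties the family to the cell's redox state. Receptor types carry an extracellular part that binds matrix, adhesion molecules or growth factors. Non-receptor types are placed by SH2, FERM, PDZ or proline-rich regions. In the inner ear the family is best known for Ptprq, a protein of the hair bundle.

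The libraries held 38636523, 44098578 and 38945498 counts for control replicates 1, 2 and 3, with 29130007, 51285343 and 43246180 for the KO-labelled libraries. RNA of Nfe2l2, the targeted gene, stood at 74.2, 126 and 96.7 CPM (library-scaled counts, by the TMM method) in control and at 396, 236 and 205 CPM in the KO-labelled libraries, which goes against a loss of its transcript. Every direction below is that of the KO-labelled libraries relative to control. Nrf2 KO replicate 1 stood apart. Pearson's r of log2(CPM + 0.5) across genes was 0.937 and 0.944 with replicates 2 and 3 of its group, against 0.997 between those 2 and 0.982 to 0.996 within control. The call of each member is also given without this library where it changes.

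The cell type label, a cochlear stem cell, was set against markers. Of 12 cochlear progenitor and supporting cell markers, 5 had 10 or more counts in at least 3 libraries, and Sox2 and Pax2 had 0 counts in all 6. Their summed level was 186 to 214 CPM in control and 241 to 333 CPM in the KO-labelled libraries, where Sox9 and Gata3 were called higher. The most abundant of them, Jag1 and Fgfr3, were not called and moved opposite ways. Jag1 was at 107 ± 7.52 and 158 ± 28.4 CPM (adjusted p = 0.107). Fgfr3 was at 61.2 ± 9.22 and 48.4 ± 17.8 CPM (adjusted p = 0.528). Of 12 hair cell markers 11 were in the table and 2 were expressed by the same rule, with Atoh1, Tmc1 and Slc26a5 at 0; their sum was 33.4 to 45.5 against 62.7 to 76.5 CPM, and Myo7a was called higher. Myo6, at 37.3 ± 6.25 and 48.3 ± 14.6 CPM, was not called (adjusted p = 0.460). Untested Espn had 4, 6 and 12 counts in control against 0, 2 and 4, and untested Cdh23 12, 12 and 7 against 7, 1 and 2. The other untested hair cell markers had at most 4 counts a library. Markers of leukocytes and endothelium, cells that are known for single phosphatases, were also low. Of 8 leukocyte markers 3 were expressed, with a summed level of 7.83 to 10.8 CPM in control and 3.97 to 16.9 CPM in the KO-labelled libraries, and Cd52 and Tyrobp were at 0. Of 8 endothelial markers 2 were expressed (1.12 to 1.80 against 1.17 to 1.95 CPM), with Kdr and Tie1 at 0. Of 9 glial markers 5 were expressed, with Sox10, Olig2 and Foxd3 at 0. Among these 3 lists Laptm5, a leukocyte gene, was called lower and Erg, an endothelial gene, higher. The other tested genes of those lists moved the opposite way and were not called. Fcer1g and Cd68 of leukocytes had log2 fold changes of 1.38 and 0.52 (adjusted p = 0.368 and 0.730). Endothelial Tek was at 1.33 ± 0.492 and 0.462 ± 0.112 CPM (-1.51, SE 0.40, adjusted p = 0.0730). Erg had 0, 2 and 2 counts in control and 42, 31 and 24 in the KO-labelled libraries. It passed the filter through the latter alone, so its direction was fixed. The part of any marker in the results below was not tested.

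Of the 38 members, 26 were expressed, meaning 10 or more counts in at least 3 libraries, and the same 26 entered the test. These were 12 of 21 receptor types and 14 of 17 non-receptor types. In control the authors' deposited table gives the highest FPKM, a level per transcript length with 1 value per group and no error, to Ptprs (40.1), Ptprn (24.5) and Ptpn12 (23.7). In the group labelled Nrf2 KO the same table gives the highest to Ptpn12 (56.1), Ptprs (33.0) and Ptpn11 (29.7). Ptprz1 moved from place 15 to place 25 of the 38 members in that table, with 4.30 and 0.211 FPKM.

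By edgeR's quasi-likelihood test over 14618 genes with Benjamini-Hochberg adjustment, 1 receptor type was lower (Ptprz1) and 4 non-receptor types were higher (Ptpn12, Ptpn3, Ptpn13 and Ptpn14). Over all genes tested, 4.83% were called higher and 3.45% lower. Among the 12 receptor types 0 were called higher, and that count was also 0 with DESeq2, with limma-voom and at an unadjusted p under 0.05. Among the 14 non-receptor types 0 were called lower, with 1 at an unadjusted p under 0.05 (11.6% of all genes, and 13.4% higher). DESeq2 called 1 of them lower, where it called 10.9% of all genes higher and 9.02% lower. Limma-voom called 0 of them lower, where it called 4.84% of all genes higher and 3.74% lower. The median log2 fold change was 0.12 over the tested receptor types and 0.55 over the tested non-receptor types, against 0.04 over all genes. The non-receptor median is the same with Ptpn3, which had no control counts, set at its lower bound. It could not differ, because Ptpn3 has the highest value of the class either way. Ptpn3 passed the filter through the KO-labelled libraries alone, so its place among the tested members carries its direction. The difference between the classes was not tested.

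**Figure D1:**
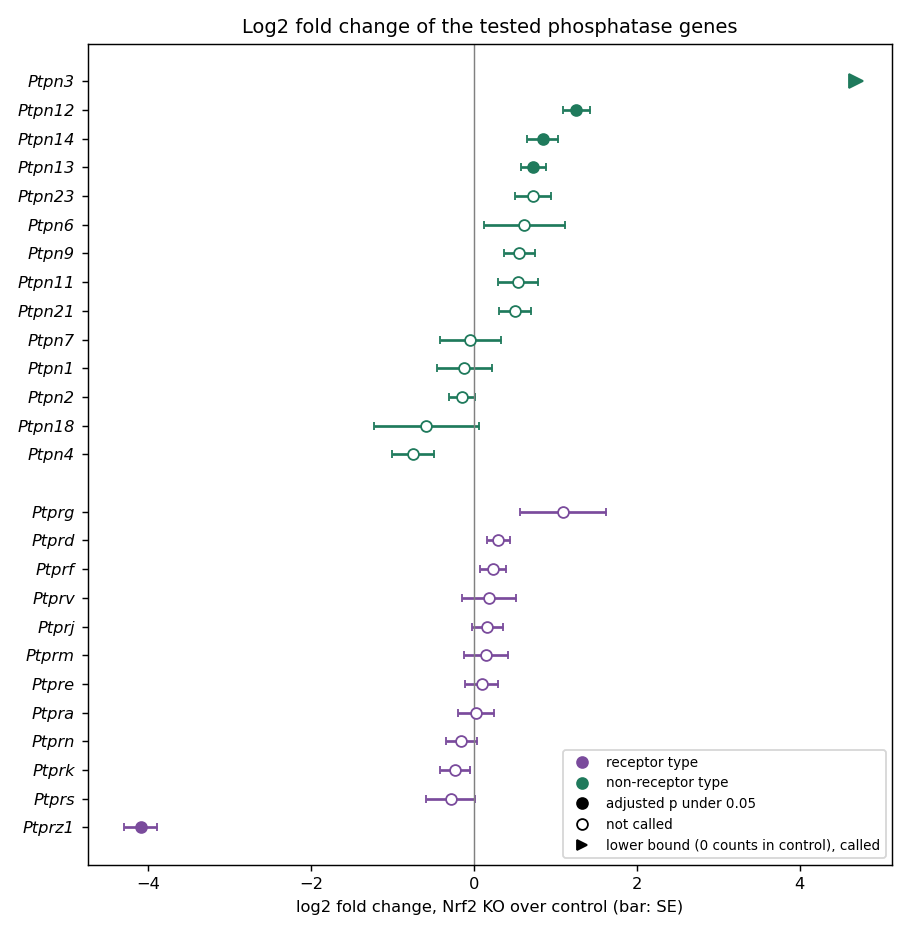
Log2 fold change (x axis, Nrf2 KO over control, bars SE) of the 26 tested members, non-receptor types above and receptor types below. Filled symbols passed an adjusted p of 0.05; Ptprz1 stands alone at -4.09, and the triangle of Ptpn3 is a lower bound of 4.69.

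The 100 bases before the annotated start of 4 of the 5 called members are shown because they are the genes on which the comparison turns and because NRF2 binds a known element. The sequences come from RefSeq (GRCm38.p6), whose table held 32 of the 38 members; Ptpn12, Ptpn2, Ptprb, Ptprd, Ptprq and Ptprv had no entry. Capitals mark a match to the core of the antioxidant response element bound by NRF2, TGACNNNGC on either strand.
Ptprz1, chr6:22875402-22875501, plus strand: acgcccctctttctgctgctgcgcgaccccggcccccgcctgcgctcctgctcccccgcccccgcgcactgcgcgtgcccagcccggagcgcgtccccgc
Ptpn3, chr4:57301838-57301937, minus strand: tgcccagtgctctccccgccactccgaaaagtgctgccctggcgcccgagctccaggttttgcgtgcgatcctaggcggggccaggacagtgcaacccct
Ptpn13, chr5:103425092-103425191, plus strand: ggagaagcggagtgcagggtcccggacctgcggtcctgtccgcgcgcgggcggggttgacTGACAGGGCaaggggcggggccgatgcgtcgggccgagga
Ptpn14, chr1:189728168-189728267, plus strand: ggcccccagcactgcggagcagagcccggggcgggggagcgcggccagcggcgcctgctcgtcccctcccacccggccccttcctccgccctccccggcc
Of these 4, Ptpn13 held a match, TGACAGGGC, from 40 to 32 bases before its start. Over windows of 300 bases, 250 before to 50 after the start, the core was found in 8 of 46 windows of members (17.4%) and in 12.4% of all 32851 windows. The members with a match were Ptpn13, Ptpn20, Ptpra, Ptprc, Ptprk, Ptprn2, Ptprr and Ptprs. Of these 8, 4 were tested and 1 was called, where 8.28% of all genes tested were called in either direction. The AP-1 element TGANTCA, which can overlap the core, was in 2 member windows, of Ptpre and Ptprh, and in 7.81% of all. The 100 bases of Ptprz1 held 15 CpG and those of Ptpn13, Ptpn14 and Ptpn3 held 13, 11 and 7. Over all windows the median was 3.0 and the quartiles were 1.0 and 8.0, so Ptpn3 lay between the quartiles. A match is a run of letters and not a site of binding.

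Ptprz1 and Ptprg form the type with a carbonic anhydrase-like outer domain. Ptprz1 is the receptor phosphatase of glia and neural precursors that binds pleiotrophin and contactin. Ptprz1 was at 31.5, 35.0 and 35.1 CPM in the control libraries and at 1.69, 1.89 and 2.36 CPM in the KO-labelled ones. The groups lay far apart and each was narrow, a mean of 33.9 ± 2.05 against 1.98 ± 0.341 CPM (SD, n = 3 each). The level was 17.0-fold lower (log2 fold change -4.09, SE 0.20, adjusted p = 0.00104). The call was kept in all 15 alternative fits, with a log2 fold change between -4.24 and -4.00. Whether fewer cells held the transcript or each cell held less cannot be told apart in bulk RNA. Of the glial markers given above edgeR called 0 of 5 tested, with 0 before adjustment (p under 0.05), 0 with DESeq2 and 0 with limma-voom. If Nrf2 KO replicate 1 was left out, 1 of these markers was lower, beside 14.5% of all genes. Without both replicate 1 libraries 2 of these markers were lower, beside 22.1% of all genes. Their part in the result was not tested.

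Ptprg, the other member of the type, was at 6.02, 14.0 and 10.4 CPM in control and 8.62, 30.7 and 25.5 CPM in the KO-labelled libraries. KO-labelled replicates 2 and 3 were above all control libraries, and replicate 1 lay within the control range. Ptprg did not pass (log2 fold change 1.09, SE 0.53, adjusted p = 0.267). It passed with the replicate number as a block (0.99, SE 0.19, adjusted p = 0.0319) and without Nrf2 KO replicate 1 (1.47, adjusted p = 0.0190).

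The LAR family, Ptprf, Ptprs and Ptprd, binds heparan and chondroitin sulfate proteoglycans and synaptic adhesion proteins. Ptprs was the receptor type with the most counts, at 349, 261 and 276 CPM in control and 352, 189 and 187 CPM in the KO-labelled libraries. Nrf2 KO replicate 1 was as high as the highest control and the other 2 were below all controls. Ptprs did not pass with all libraries (-0.29, SE 0.30, adjusted p = 0.632) and was called lower without Nrf2 KO replicate 1 (-0.66, adjusted p = 0.0252). Ptprf was at 202, 216 and 194 against 262, 248 and 208 CPM, with overlapping groups (0.23, SE 0.16, adjusted p = 0.445).

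Ptprd was at 63.1, 61.4 and 59.8 CPM in control and 66.0, 82.1 and 78.5 CPM in the KO-labelled libraries. All 3 lay above the controls, by little in replicate 1. Ptprd did not pass (0.30, SE 0.14, adjusted p = 0.260) and was called higher without Nrf2 KO replicate 1 (0.38, adjusted p = 0.0283). It was the 1 tested receptor type whose KO-labelled libraries all lay above control, and Ptprz1 the 1 below. Over all genes tested, 17.1% lay wholly above and 17.1% wholly below.

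Of the other tested receptor types, Ptprf included, none passed in any fit. Ptprn, the catalytically inactive IA-2 protein of secretory granules, was at 89.3, 117 and 107 CPM in control and 75.7, 104 and 102 CPM in the KO-labelled libraries. Its groups overlapped (-0.15, SE 0.19, adjusted p = 0.686). Ptpra, which activates Src by taking off its inhibitory phosphate, was at 68.9 ± 9.43 and 70.0 ± 16.1 CPM, with a log2 fold change of 0.02 that turned to -0.04 with upper-quartile scaling and -0.01 with library size alone. The log2 fold changes of Ptpre, its relative, of Ptprj, a phosphatase of growth factor receptors, and of Ptprm and Ptprk, which bind their own kind between cells, lay between -0.24 (Ptprk) and 0.16 (Ptprj). Ptprv, just inside the limit of expression with 13 to 20 counts a library, had 0.19 (SE 0.33).

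PTP-PEST, encoded by Ptpn12, is a cytosolic phosphatase of focal adhesion proteins such as p130Cas. Ptpn12 was at 78.3, 100 and 93.9 CPM in control and 197, 229 and 225 CPM in the KO-labelled libraries. The lowest of the latter was well above the highest control, and the rise was 2.39-fold (log2 fold change 1.26, SE 0.17, adjusted p = 0.00872). The call was lost without control replicate 1 (adjusted p = 0.0544) or 3 (0.0816) and kept in the other 13 alternatives. Its log2 fold change was 1.16 or more in all 15. Ptpn18, another PEST type, was low and its groups overlapped (0.992 ± 0.406 against 0.672 ± 0.552 CPM, adjusted p = 0.645).

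A FERM domain, which docks proteins at the membrane skeleton, is shared by 5 members. Ptpn3, PTPH1, had 0 counts in all 3 control libraries and 92, 61 and 63 in the KO-labelled ones. These counts equal 2.94, 1.24 and 1.53 CPM, a low level that was detected in 1 group only. Set against a floor of 3 counts per control library, the mean was at least 25.8-fold higher (adjusted p = 0.0138). The call was lost without control replicate 3 (adjusted p = 0.0530) or Nrf2 KO replicate 3 (0.0557). Among members, no other gene had 0 counts in 1 group and 50 or more in each library of the other.

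Ptpn13, a large scaffold phosphatase with several PDZ domains that binds Fas, was at 60.6, 60.6 and 53.4 CPM in control and 109, 94.6 and 86.2 CPM in the KO-labelled libraries. The groups did not overlap, and the rise was 1.66-fold (log2 fold change 0.73, SE 0.15, adjusted p = 0.0355). Ptpn14, which holds the coactivator YAP out of the nucleus, was at 75.0, 102 and 83.7 CPM in control and 135, 180 and 155 CPM in the KO-labelled libraries. These groups did not overlap either, and the rise was 1.80-fold (0.85, SE 0.19, adjusted p = 0.0463). Both calls were close to the threshold. Each was lost with no filter on low counts (adjusted p = 0.0561 for Ptpn13 and 0.0725 for Ptpn14) and without any 1 library other than Nrf2 KO replicate 1 (0.0854 to 0.215 for Ptpn13, 0.0952 to 0.239 for Ptpn14). Ptpn13 was lost as well with upper-quartile scaling (0.0562) and library size alone (0.0629).

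Ptpn21, the closest relative of Ptpn14, was at 32.5, 45.3 and 38.2 CPM in control and 45.5, 62.2 and 57.0 CPM in the KO-labelled libraries. The lowest of the latter was just above the highest control. Ptpn21 did not pass with all libraries (0.51, SE 0.19, adjusted p = 0.173). It passed if Nrf2 KO replicate 1 was left out (0.0283) and in the fit blocked by replicate number (0.0385).

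Ptpn4, the closest relative of Ptpn3, lay on the other side, at 38.7, 54.3 and 50.2 CPM in control and 19.6, 33.2 and 32.4 CPM in the KO-labelled libraries. All 3 of the latter lay below control, with replicate 1 lowest. The log2 fold change of -0.75 (SE 0.26) did not pass (adjusted p = 0.134). It passed by DESeq2 (adjusted p = 0.0479), in the blocked fit (0.0216) and if Nrf2 KO replicate 1 was left out (0.0460). Of the 5 FERM types 3 were thus called higher and 0 lower by edgeR, beside 4.83% and 3.45% of all genes. The groups of all 5 were apart, 4 above and 1 below, where 17.1% of all genes lay each way. The counts were 4 and 1 at an unadjusted p under 0.05 (13.4% and 11.6% of all genes) and in the blocked fit (10.4% and 7.92%). They include Ptpn3, whose direction its filter fixed.

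SHP2, encoded by Ptpn11, carries 2 SH2 domains and passes growth factor signals on to ERK. It was the non-receptor type with the most counts in control, at 113, 172 and 132 CPM, and at 161, 252 and 196 CPM in the KO-labelled libraries. Nrf2 KO replicate 1 lay below control replicate 2, and each library was above the control of its own number. Ptpn11 did not pass with all libraries (0.55, SE 0.24, adjusted p = 0.235) and passed in the blocked fit (0.54, adjusted p = 0.0354) and if Nrf2 KO replicate 1 was left out (0.69, adjusted p = 0.0481). Ptpn6, SHP1 of blood cells, was low at 0.575 ± 0.106 and 0.898 ± 0.577 CPM (adjusted p = 0.513), with a log2 fold change of 0.62 that turned to -0.03 without Nrf2 KO replicate 1.

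HD-PTP, encoded by Ptpn23, helps to sort receptors into endosomes. Ptpn23 was at 85.2, 63.2 and 69.0 CPM in control and 153, 106 and 101 CPM in the KO-labelled libraries, with no overlap. It did not pass (0.73, SE 0.22, adjusted p = 0.102) and passed by DESeq2 (0.0265), in the blocked fit (0.0210) and if Nrf2 KO replicate 1 was left out (0.0424). Ptpn9, MEG2 of secretory vesicles, was at 58.2, 53.5 and 55.1 CPM in control and 103, 74.5 and 68.0 CPM in the KO-labelled libraries. Its groups did not overlap, and it passed without Nrf2 KO replicate 1 (0.35, adjusted p = 0.0440) and not with all libraries (0.56, SE 0.19, adjusted p = 0.133) or the block (0.0598).

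PTP1B and TC-PTP, encoded by Ptpn1 and Ptpn2, restrain the insulin receptor and JAK kinases. Ptpn1 was at 30.4, 44.8 and 37.7 CPM in control and 19.1, 43.2 and 41.7 CPM in the KO-labelled libraries, where replicate 1 stood apart below. Its log2 fold change was -0.12 (SE 0.34, adjusted p = 0.879) and turned to 0.17 without that library. Ptpn2 was at 71.4, 65.4 and 69.1 against 52.2, 63.4 and 70.8 CPM, with overlapping groups (-0.14, SE 0.16, adjusted p = 0.647). Ptpn7, HePTP of lymphocytes, was at 1.01 ± 0.248 and 0.983 ± 0.374 CPM (adjusted p = 0.963).

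**Figure D2:**
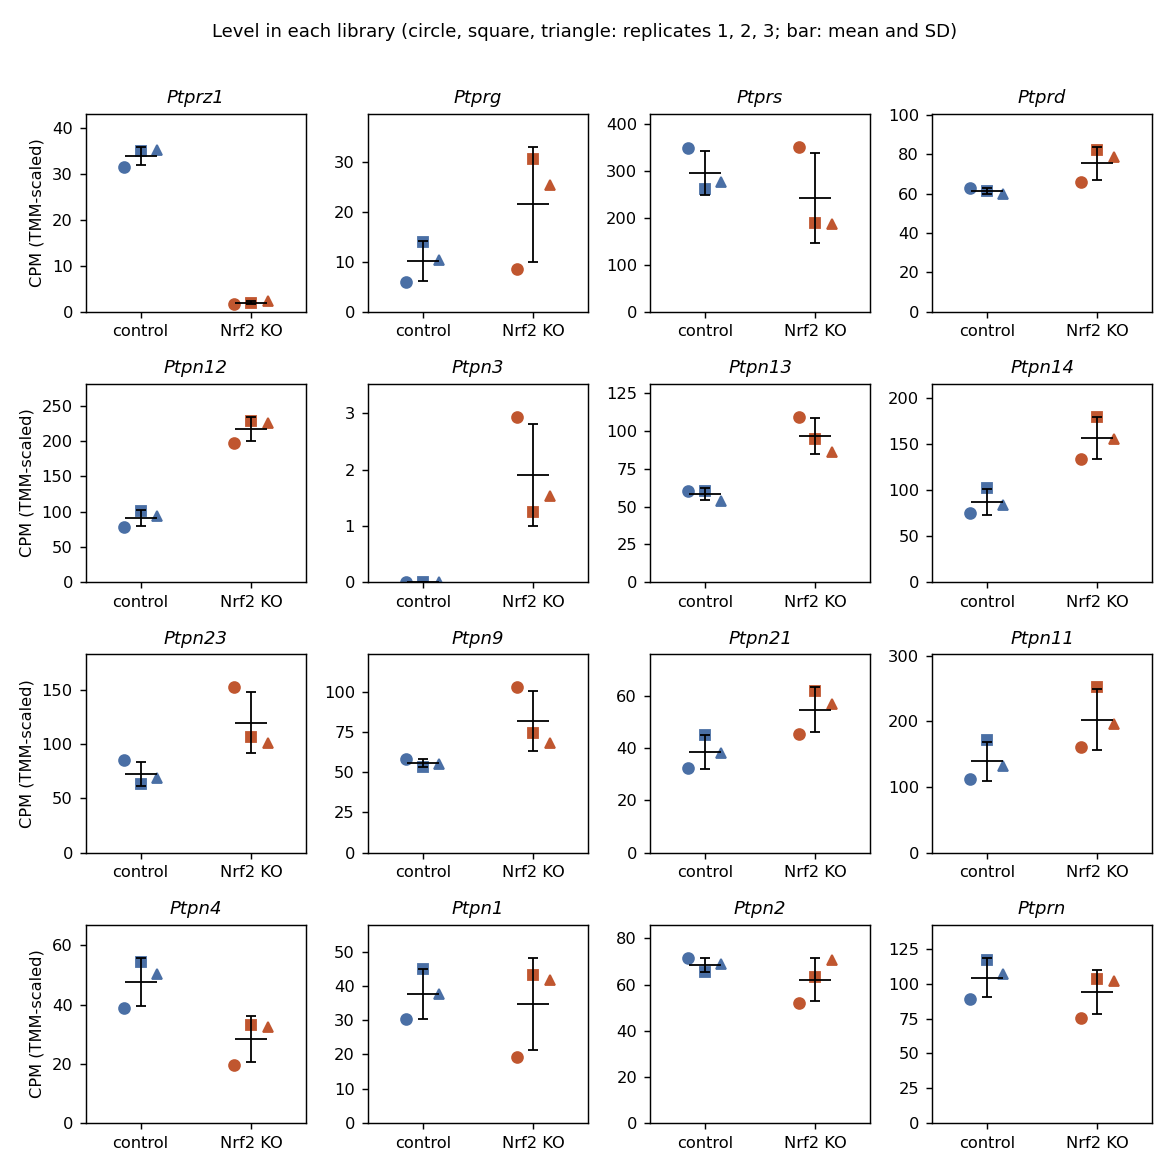
CPM (y axis, from 0, TMM-scaled) of 16 members in each library of the control and Nrf2 KO groups, with replicates 1, 2 and 3 as circle, square and triangle and the mean and SD as bars. Ptprz1 and Ptpn12 separate the groups widely, while in Ptprg, Ptprs and Ptpn1 the circle of Nrf2 KO replicate 1 lies away from the other 2.

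Of 14 non-receptor types 7 lay wholly above control in the KO-labelled libraries and 1 wholly below, set against 17.1% of all genes each way. The 7 include Ptpn3, whose direction its filter fixed. Summed over all 17 non-receptor types, the level was 646, 764 and 685 CPM in control and 1001, 1141 and 1037 CPM in the KO-labelled libraries. The 21 receptor types summed to 846, 844 and 803 CPM in control and 862, 797 and 732 CPM in the KO-labelled libraries. The non-receptor sums did not overlap between groups and the receptor sums did. A sum weights the abundant members, and no test was made of it.

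**Figure D3:**
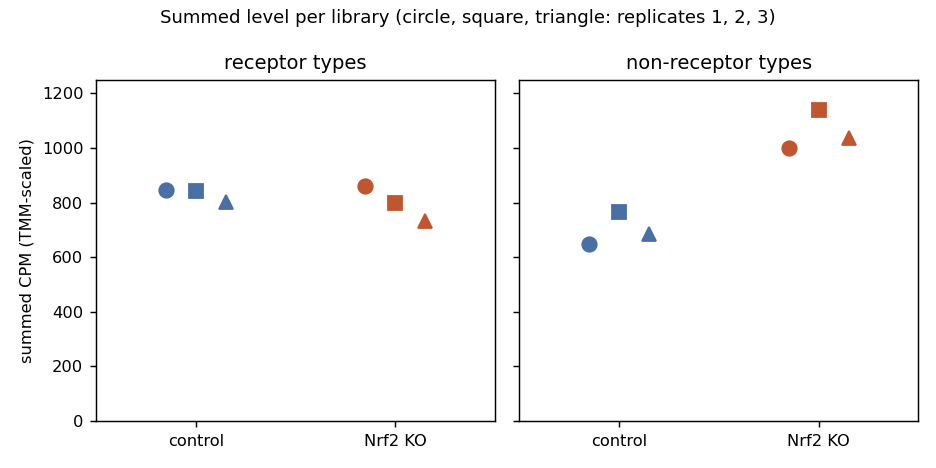
Summed CPM (y axis, TMM-scaled) of the 21 receptor types and the 17 non-receptor types in each library of control and Nrf2 KO. The non-receptor sums of the KO-labelled libraries, 1001 to 1141, lie above the controls, 646 to 764, while the receptor sums overlap.

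With the replicate block, which the counts but not the labels give as a pairing, 7 non-receptor types were higher and 1 lower, and 1 receptor type was higher and 1 lower. Over all genes that fit called 10.4% higher and 7.92% lower. DESeq2 called 5 non-receptor types higher and 1 lower, where it called 10.9% and 9.02% of all genes. Without Nrf2 KO replicate 1 the non-receptor counts were 8 and 1 and the receptor counts 2 and 3, beside 15.6% and 14.5% of all genes. The third lower receptor type in that fit was Ptpru, which is not among the expressed members. It passed the filter there through control libraries alone, so its place in that count carries its direction. Without control replicate 3 the non-receptor counts fell to 0 and 0 (4 higher and 0 lower at an unadjusted p under 0.05), beside 0.925% and 0.379% of all genes. They were 1 and 0 without control replicate 1 (1.4% and 0.691% of all genes) or Nrf2 KO replicate 3 (1.82% and 0.739%). They were 2 and 0 without control replicate 2 (1.37% and 0.659%) or Nrf2 KO replicate 2 (1.79% and 0.74%), and with no filter on low counts (2.85% and 1.98%). Without both replicate 1 libraries they were 8 and 1, beside 24% and 22.1%. Ptpn3 was among the higher types in each of these fits except those without control replicate 3 or Nrf2 KO replicate 3. Wherever a filter was applied, it fixed the direction of Ptpn3.

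**Figure D4:**
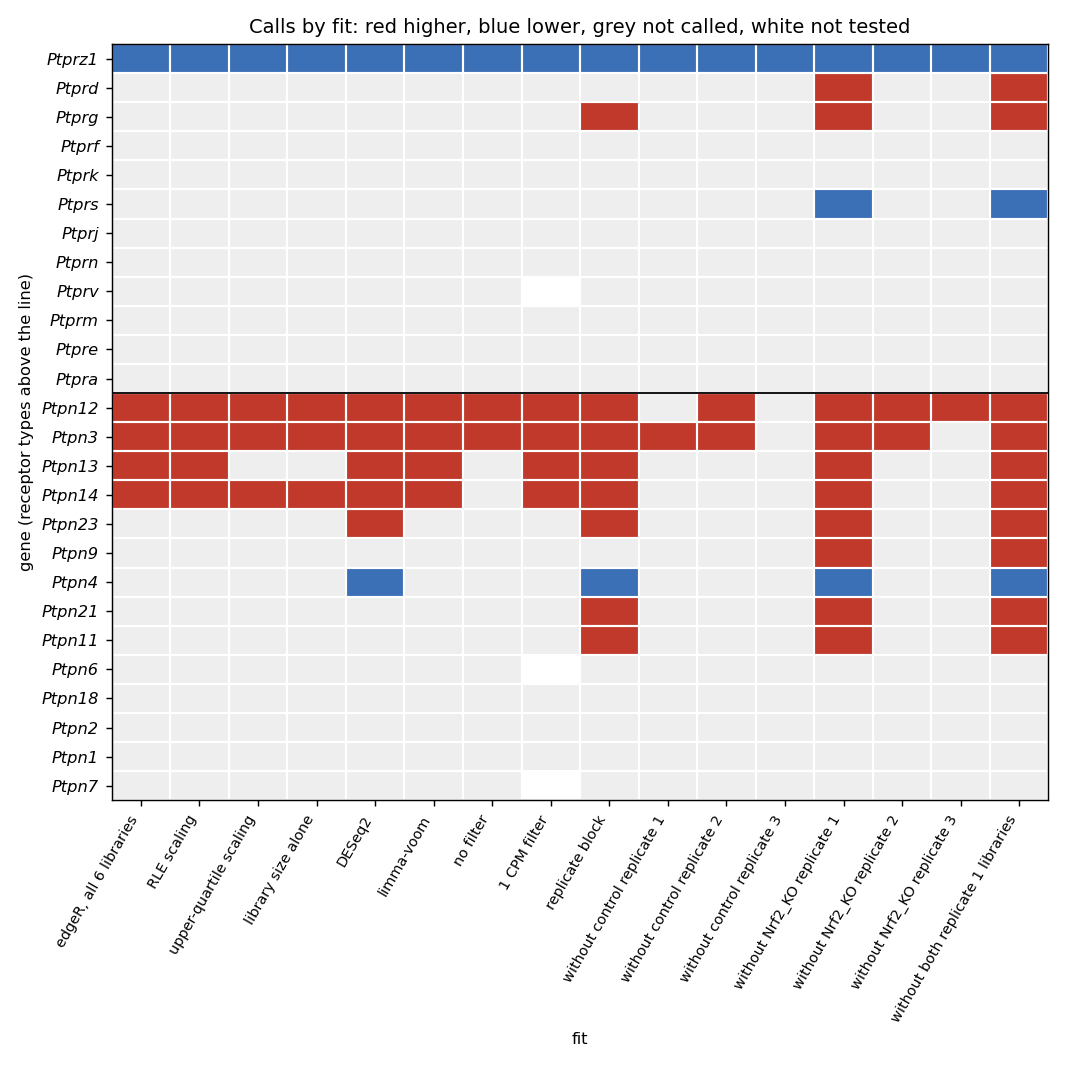
Calls at an adjusted p of 0.05 for the 26 tested members (rows) in the fit on all 6 libraries and 15 alternatives (columns), red for higher, blue for lower and grey for not called. Ptprz1 is called in every column, and Ptprd, Ptprg, Ptprs, Ptpn9, Ptpn21 and Ptpn11 are called only in the blocked fit or in the fits that leave out Nrf2 KO replicate 1. White cells were not tested.

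The 12 members that were not expressed included 2 with 0 counts in all libraries, Ptprt and Ptprn2. A further 6 had fewer than 10 counts in every library. Ptprc, the CD45 phosphatase that defines leukocytes, had 1 count among 245342129. Ptprb of endothelium had 6 counts in control and 8 in the KO-labelled libraries, and Ptpn5 and Ptpn20 had 2 counts each. Ptprq had 0 counts in control and 5, 4 and 3 in the KO-labelled libraries, and Ptpro had 0 against 2, 3 and 0.

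The other 4 lay just outside the limit of expression. Ptpru, a MAM-domain type, had 16, 18 and 7 counts in control and 2, 2 and 2 in the KO-labelled libraries. With no filter on low counts its adjusted p was 0.0524, and it was called lower without Nrf2 KO replicate 1 (0.0219). In that last fit Ptpru passed the filter through control libraries alone. Ptprr, which binds MAP kinases, had 2, 2 and 0 counts against 8, 12 and 6, with an adjusted p of 0.157 with no filter. Ptprh had 0, 2 and 0 against 11, 6 and 5 (0.172), and Ptpn22, a lymphocyte type, 10, 7 and 7 against 4, 4 and 8 (0.622). Just inside the limit, Ptpn18 had 14 to 52 counts a library.

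Genes that act with these phosphatases were taken from 8 lists of substrates, ligands and related enzymes. The share of all genes called higher and lower, against which each list's counts stand, was 4.83% and 3.45% with all libraries and 10.4% and 7.92% in the blocked fit. It was 15.6% and 14.5% if Nrf2 KO replicate 1 was left out, 24% and 22.1% without both replicate 1 libraries, and at most 1.82% and 0.74% without any 1 of the other libraries. Of 14 tested Src-family kinases and regulators 2 were higher and 1 lower, with a median log2 fold change of 0.13 against 0.04 over all genes. Src, the kinase that several members act on, fell from 75.6 ± 3.71 to 37.3 ± 1.75 CPM (-1.02, SE 0.13, adjusted p = 0.00810). Ptk2, focal adhesion kinase, rose from 75.2 ± 7.58 to 117 ± 1.38 CPM (0.64, adjusted p = 0.0419) and Ptk2b, its relative, from 0.175 ± 0.0748 to 1.06 ± 0.316 CPM (2.60, adjusted p = 0.0234). Ptk2b had 9, 4 and 8 counts in control and 22, 59 and 53 in the KO-labelled libraries. It passed the filter through the latter alone, so its place among the 2 higher genes carries its direction. The counts were 3 and 1 in the blocked fit (10.4% and 7.92% of all genes) and 4 and 1 if Nrf2 KO replicate 1 was left out (15.6% and 14.5%). Without any 1 of the other libraries 0 were higher and 0 to 1 lower.

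Of 14 tested SHP2 docking proteins and partners 1 was higher and 1 lower (median 0.33), 3 and 1 in the blocked fit (10.4% and 7.92% of all genes) and 7 and 2 if Nrf2 KO replicate 1 was left out (15.6% and 14.5%). Sirpa, the receptor on which SHP2 docks and CD47 binds, fell from 5.79, 7.44 and 6.08 CPM to 0.638, 0.733 and 0.486 CPM (-3.37, SE 0.27, adjusted p = 0.00255). Shc1, an adaptor of growth factor receptors, rose from 115 ± 1.47 to 190 ± 6.13 CPM (0.72, adjusted p = 0.0249). Without any 1 of the other 5 libraries 0 were higher and 1 lower.

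Of 10 tested JAK-STAT genes 3 were higher and 1 lower (median 0.69). Stat2, Stat3 and Jak3 rose with log2 fold changes of 0.89, 0.86 and 0.87, and Stat5a fell from 44.6 ± 1.11 to 24.3 ± 2.65 CPM (-0.88, SE 0.15, adjusted p = 0.0182). The counts were 6 and 1 with the block (10.4% and 7.92% of all genes), also 6 and 1 if Nrf2 KO replicate 1 was left out (15.6% and 14.5%), and 0 and 0 without any 1 of the other libraries. Of 19 tested receptor tyrosine kinases 2 were higher and 1 lower (median 0.14), 5 and 3 with the block (10.4% and 7.92% of all genes). The counts were 5 and 5 if Nrf2 KO replicate 1 was left out (15.6% and 14.5%), and 1 to 2 higher and 0 lower without any 1 of the other libraries. Pdgfra rose from 53.5 ± 5.78 to 205 ± 31.2 CPM, Epha2 from 13.8 ± 0.935 to 35.7 ± 3.28 CPM, and Flt1, a VEGF receptor, fell from 85.6 ± 16.4 to 26.3 ± 10.9 CPM (-1.70, SE 0.36, adjusted p = 0.0392).

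Of 20 tested LAR-family ligands, partners and liprins 2 were higher and 2 lower (median 0.15), 5 and 2 with the block (10.4% and 7.92% of all genes). The counts were 7 and 3 if Nrf2 KO replicate 1 was left out (15.6% and 14.5%), and 1 to 2 higher and 0 to 1 lower without any 1 of the other libraries. Ppfibp2, a liprin beta, rose from 1.44 ± 0.392 to 11.5 ± 2.29 CPM (3.00, adjusted p = 0.00380). Ppfia2, a liprin alpha, had 0 counts in control and 13, 21 and 16 in the KO-labelled libraries, at least 5.56-fold higher against 3 counts per control library. It passed the filter through the KO-labelled libraries alone, so its place among the 2 higher genes carries its direction. Gpc2, a glypican, fell from 2.60 ± 1.18 to 0.143 ± 0.0981 CPM (-4.22, SE 0.59, adjusted p = 0.0120). Gpc2 had 154, 75 and 85 counts in control and 8, 5 and 3 in the KO-labelled libraries. It passed the filter through control, so its place among the 2 lower genes carries its direction.

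In 3 lists edgeR called 0 genes with all 6 libraries. The shares of all genes were 13.4% higher at an unadjusted p under 0.05, 10.9% with DESeq2 and 4.84% with limma-voom, beside those given above for the other fits. Of 8 tested PTPRZ and PTPRG partners 1 was higher before adjustment (p under 0.05), 1 with DESeq2, 0 with limma-voom and 2 with the block. Leaving out Nrf2 KO replicate 1 gave 2 higher and 0 lower, and leaving out both replicate 1 libraries 3 and 1. Ptn, the ligand pleiotrophin, was at 160, 91.3 and 113 CPM in control and 264, 148 and 177 CPM in the KO-labelled libraries, with overlapping groups (0.69, SE 0.31, adjusted p = 0.228), and Git1 at 112 ± 9.77 and 110 ± 33.6 CPM. Of 6 tested cadherin and catenin substrates 1 was higher before adjustment, 1 with DESeq2, 1 with the block and 0 with limma-voom. Leaving out Nrf2 KO replicate 1 gave 2 higher, and leaving out both replicate 1 libraries 5, with 0 lower in each. Their most abundant genes were Ctnnb1 (542 ± 93.8 and 655 ± 152 CPM) and Ctnna1 (360 ± 86.3 and 410 ± 181 CPM). Of 21 tested non-classical tyrosine phosphatases 2 were higher and 0 lower before adjustment and with DESeq2. Limma-voom and the blocked fit called 0 of them, and leaving out Nrf2 KO replicate 1 gave 4 higher, or 7 without both replicate 1 libraries, with 0 lower in each. Tns2 and Ptp4a2 led that list by counts, at 321 ± 71.8 and 156 ± 9.03 CPM in control against 536 ± 295 and 194 ± 30.9 CPM.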

How the data were processed

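RNA was measured in 6 samples. The authors deposited raw counts per gene symbol for each library and, in a second table, FPKM with 1 value per group. The submitters' processing notes list fastp, FastQC, HISAT2 and DESeq2 1.34.0 without their roles, and a human build, hg18. No source used here names the counting tool, its strand setting or the annotation. The symbols follow rat naming (650 begin with RGD, 0 with H2-), although the cells are of the mouse. Reads may therefore have been lost to a different degree from gene to gene, which bears on levels set between members, and overlapping or antisense genes could share reads. The number of columns from other samples was 0.

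EdgeR 4.0.16 in R 4.3.3 (filterByExpr by group, minimum count 10 and minimum total 15, TMM, robust quasi-likelihood, group as the only term) gave two-sided p-values, adjusted by Benjamini-Hochberg over 14618 genes with a threshold of 0.05; the script was tested on simulated data. SE is that of the log2 fold change. Levels are CPM, mean ± SD of 3 libraries. Alternatives were DESeq2 1.42.0, limma-voom (limma 3.58.1), 3 other scalings, 2 other filters, a replicate block and fits that left out libraries. The labels do not say what a replicate number marks. Deviations from the group means correlated between same-numbered libraries at 0.817, 0.789 and 0.493 for numbers 1, 2 and 3, all over 0.1. For that reason alone the numbers were treated as pairs in the replicate block. The other fits had no term for the number. Of the control libraries, replicate 2 was closer than replicate 3 to Nrf2 KO replicate 3 (0.618). The most alike pair of libraries had a chi-square per degree of freedom of 15.2, above sampling noise. Separate cultures are not stated, so p-values measure only the spread between these samples and that spread may be technical.

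The members and lists were chosen with earlier results of these data known. Values in every library are given for called members, for those called with the block or without Nrf2 KO replicate 1, for those whose groups did not overlap at an unadjusted p under 0.05, and for the 3 most abundant of each class. In each list up to 3 called genes of smallest p were named, or the 2 most abundant where none was called. Ptpn2, Ptpn1, Stat3, the markers named as called or with values and members of low count were added after their values were seen. The level of 1 marker gene, and the sum that holds it, is not reported here.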

Additional observations from a re-analysis of the deposited data

How the results depend on the processing

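The fall of Ptprz1 kept its call, and Ptpn12, Ptpn13 and Ptpn14 kept their direction, in all 15 alternatives. Ptpn3 had 0 counts in every control library, so its direction could not change in any fit. Over the 26 tested members 387 log2 fold changes were computed, and 327 kept their direction and side of the threshold, 18 lost a call, 23 gained one and 19 changed sign. The replicate block changed the call of Ptpn11, Ptpn21, Ptpn23, Ptpn4 and Ptprg and of no other tested member.

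With the replicate block 1 receptor type and 7 non-receptor types were higher and 1 non-receptor type was lower, with 1520 genes higher and 1158 lower over the table. DESeq2 called 1 non-receptor type lower, with 1598 genes higher and 1318 lower. With no filter on low counts 2 non-receptor types were higher, with 595 genes higher and 412 lower over the table. They were Ptpn12 and Ptpn3, and the latter had 0 counts in every control library. Without both replicate 1 libraries 2 receptor types were higher and 2 lower, 8 non-receptor types higher and 1 lower, and 3540 genes higher and 3253 lower. Leaving out 1 library gave 0 to 2 receptor types higher and 1 to 3 lower, 0 to 8 non-receptor types higher and 0 to 1 lower, and 139 to 2323 genes higher and 57 to 2162 lower. The 3 lower receptor types included Ptpru, which passed the filter there through control libraries alone. In each of these ranges the high end was the fit without Nrf2 KO replicate 1 and the low end of the gene counts that without control replicate 3. The cause was not tested.

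Signs changed only among members that were not called. Without both replicate 1 libraries the log2 fold change was 0.05 for Ptpn1, 0.00 for Ptpn2, -0.02 for Ptpn6 and -0.11 for Ptprv. Ptpra was at -0.04 with upper-quartile scaling and -0.01 with library size alone. Leaving out 1 library moved Ptpn1 between -0.31 and 0.17, Ptpn6 between -0.03 and 0.87, Ptpn7 between -0.39 and 0.16 and Ptpra between -0.11 and 0.20. The same gave -0.01 to 0.21 for Ptpre, -0.03 to 0.33 for Ptprm and -0.02 to 0.32 for Ptprv. At these depths Ptprv, with 13 to 20 counts a library, had an SE of 0.33 on the log2 scale.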
